A study of Mus musculus with 11 samples.

Results

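The cytosolic ribosomal protein genes encode the proteins of the ribosome that translates messenger RNA in the cytoplasm. They were taken by symbol, as the genes whose names begin with Rpl or Rps and a digit, together with the stalk genes Rplp0, Rplp1 and Rplp2 and with Rpsa. The 9 Rps6k kinase genes and 1 gene whose symbol holds "-ps" were left out. This rule found 84 of the 11366 genes in the table. Of these, 77 encode core ribosomal proteins, 46 of the large and 31 of the small subunit. The other 7 are the paralogs Rpl7l1, Rpl22l1, Rpl36al, Rpl37rt, Rps4l and Rps27l, and Rps19bp1, whose product binds RPS19 and is not itself a ribosomal protein. Fau and Rack1, which also encode parts of the ribosome, have symbols outside the rule and were described separately. The 84 genes lie on 19 chromosomes.

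RNA was sequenced from epithelial cells of the small intestine of wild-type mice in 3 groups. SFB mice ate standard chow and were colonized with SFB, read here as segmented filamentous bacteria, commensals that attach to the ileal epithelium (n = 4). NFF mice (n = 4) received chow with little fermentable fiber, and Control mice ate standard chow and received no treatment (n = 3, numbered 2, 4 and 5). Cells of all 3 groups were sorted live as positive for EpCAM, an epithelial adhesion molecule, and negative for CD45 (leukocytes), CD31 (endothelium) and CD44 (crypt cells). The ribosomal protein levels below are those of the cells that passed this gate, in which the 13 markers of Paneth cells, a cell type of the crypt base, summed to 450 to 18849 RPKM in SFB, 16232 to 26285 in NFF and 18415 to 35994 in Control (RPKM, the read number of a gene scaled to its length and to the reads of the library). Whether each library is its own animal is not stated in the labels, so a p-value here reflects the spread among libraries of a group, part or all of which may be technical.

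Some libraries stood apart before any ribosomal gene was considered. Summed over all genes, a library held 237248 to 302661 RPKM. Epcam, whose product was selected for in the sort, was at 494 to 670 RPKM in SFB, 586 to 648 in NFF and 489 to 615 in Control. Only 4 of 19 leukocyte markers and 0 of 7 fibroblast markers were in the table, whose rule for detection is not known. Among the 4, Lyz2 ran from 1.34 RPKM in SFB 2 to 50.6 in Control 2. The 33 proliferation genes, all measured and none at 0, summed to 212, 155, 241 and 709 RPKM in SFB 1 to 4, to 75.6 to 121 in NFF, and to 95.2, 334 and 166 in Control 2, 4 and 5. The 10 absorptive enterocyte markers, all measured and none at 0, summed to 6938, 7264, 5832 and 1927 RPKM in SFB 1 to 4, to 6330 to 7809 in NFF, and to 11526, 3822 and 5517 in Control 2, 4 and 5. SFB 4 was thus the library highest in proliferation genes and lowest in absorptive markers, and Control 4 stood in the same position within Control. SFB 2 was the library with 450 RPKM of Paneth cell markers, against 9400 to 18849 in the other SFB libraries. Control 2 had 5321 RPKM of the 7 measured markers of the proximal intestine, against 304 and 529 in Control 4 and 5. Most of this sum was Fabp1 (2665 RPKM) and Apoa4 (2189), and of the 7 only Slc40a1 was lower in Control 2 than in Control 4 and 5. The 10 distal markers summed to 1070 RPKM in Control 2, against 5543 and 5950 in Control 4 and 5.

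A ribosome is built from a small subunit, which reads the messenger RNA, and a large subunit, which joins the amino acids, and most of its proteins are present in 1 copy, so that their genes are usually expressed in proportion. Ribosomal protein messenger RNAs of vertebrates begin with a terminal oligopyrimidine tract, a C followed by further C or T bases at the very start of transcription, through which the mTORC1 kinase pathway controls their translation. Ribosome production is high in the dividing cells of the intestinal crypt and declines as cells differentiate and move up the villus.

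The tract is shown for some of the genes described below. Promoter sequences were available from RefSeq (GRCm38.p6) for 63 of the 84 genes, as 74 promoters that run from 250 bases before to 50 bases after an annotated start. A run of at least 6 C or T bases that opens with C, on the transcribed strand and covering or lying within 20 bases of the start, was found in 44 of the 74 promoters (59.5%), against 35.8% of all 32851 mouse promoters and 34.6% of the 10632 promoters of the other tested genes. The windows below run from 40 bases before the start to its first 10 bases, with the tract in capitals. Rps6, on which the S6 kinases act, Rpl38, one of the 10 most abundant genes, and Rpl28, one of the genes of smallest spread, carry it at or next to the start, and so does Rps27, the gene with the lowest p-value between SFB and NFF. Rps27l, whose runs end before the annotated start, is its paralog, and Rps3a1, the third most abundant gene, is shown as a promoter without such a run.
Rps6, chr4:86857358-86857407, minus strand: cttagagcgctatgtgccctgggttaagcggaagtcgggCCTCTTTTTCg
Rpl38, chr11:114668540-114668589, plus strand: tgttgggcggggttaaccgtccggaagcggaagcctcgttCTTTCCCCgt
Rpl28, chr7:4792925-4792974, plus strand: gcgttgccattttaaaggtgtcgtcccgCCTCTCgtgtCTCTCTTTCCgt
Rps27, chr3:90213639-90213688, minus strand: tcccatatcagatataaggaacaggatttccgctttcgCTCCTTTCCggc
Rps27l, chr9:66946046-66946095, plus strand: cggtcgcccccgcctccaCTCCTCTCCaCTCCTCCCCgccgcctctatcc
Rps3a1, chr3:86142659-86142708, minus strand: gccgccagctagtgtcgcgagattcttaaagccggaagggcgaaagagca

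Of 4 further motifs searched on both strands of the whole promoter, CCGGAAG, a core bound by ETS family factors, was in 35.1% of the ribosomal protein promoters, against 8.86% of all mouse promoters and 18.9% of those of the other tested genes. GCCATC, the core of the YY1 motif, was in 25.7%, against 14.1% and 15.2%. GGGCGG, the Sp family box, was in 62.2%, against 35.7% of all and 62.8% of the other tested promoters. TATAAA was in 9.46%, against 13.6% and 7.36%. No motif is contained in another, their matches may overlap within a promoter, and a match is only a match of letters.

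All 84 genes were measured in every library, none at 0, and all passed the filter for testing. The mean RPKM of a gene over the 11 libraries had a median of 42.3 and spanned a ratio of 69.7 between the highest and the lowest. The 10 most abundant genes held 37.7% of the summed level, 14 genes exceeded 100 RPKM and 9 lay under 10. The 5 highest were Rplp1 (266 RPKM), an acidic protein of the ribosomal stalk that recruits elongation factors, Rpl36 (245), Rps3a1 (229), Rpl19 (178) and Rpl32 (170). The 5 lowest were Rpl13a (3.82 RPKM), Rps15a (5.91), Rpl22 (7.62), Rpl30 (8.45) and Rpl37rt (8.73). Genes whose proteins belong to the same structure did not have the same RPKM. Of the stalk genes, Rplp1 was followed by Rplp0 at 163 RPKM, whose product anchors the stalk on the ribosome, and by Rplp2 at 37.8. No source used here gives the gene lengths that the authors divided by, so the order of genes also depends on lengths that could not be checked.

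Genes with well-known further roles lay throughout this range. Rpsa, which also serves as a laminin receptor, was at 54.0 RPKM, Rps6 at 67.6, Rps14 at 102 and Rps27a, made as a fusion with ubiquitin, at 44.1. Rpl5 and Rpl11, which carry the 5S ribosomal RNA and bind the p53 regulator MDM2 when ribosome assembly fails, were at 29.4 and 20.7 RPKM. Rpl3, at the centre where peptide bonds form, was at 59.7, Rpl10, one of the last proteins to join the large subunit, at 50.9, Rpl10a at 14.2, Rps19, whose loss causes Diamond-Blackfan anaemia in humans, at 32.1, and Rpl38 at 118. Rps4x was at 76.1 RPKM and its paralog Rps4l at 27.4. Rps19bp1 was at 9.34 RPKM.

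**Figure D1:**
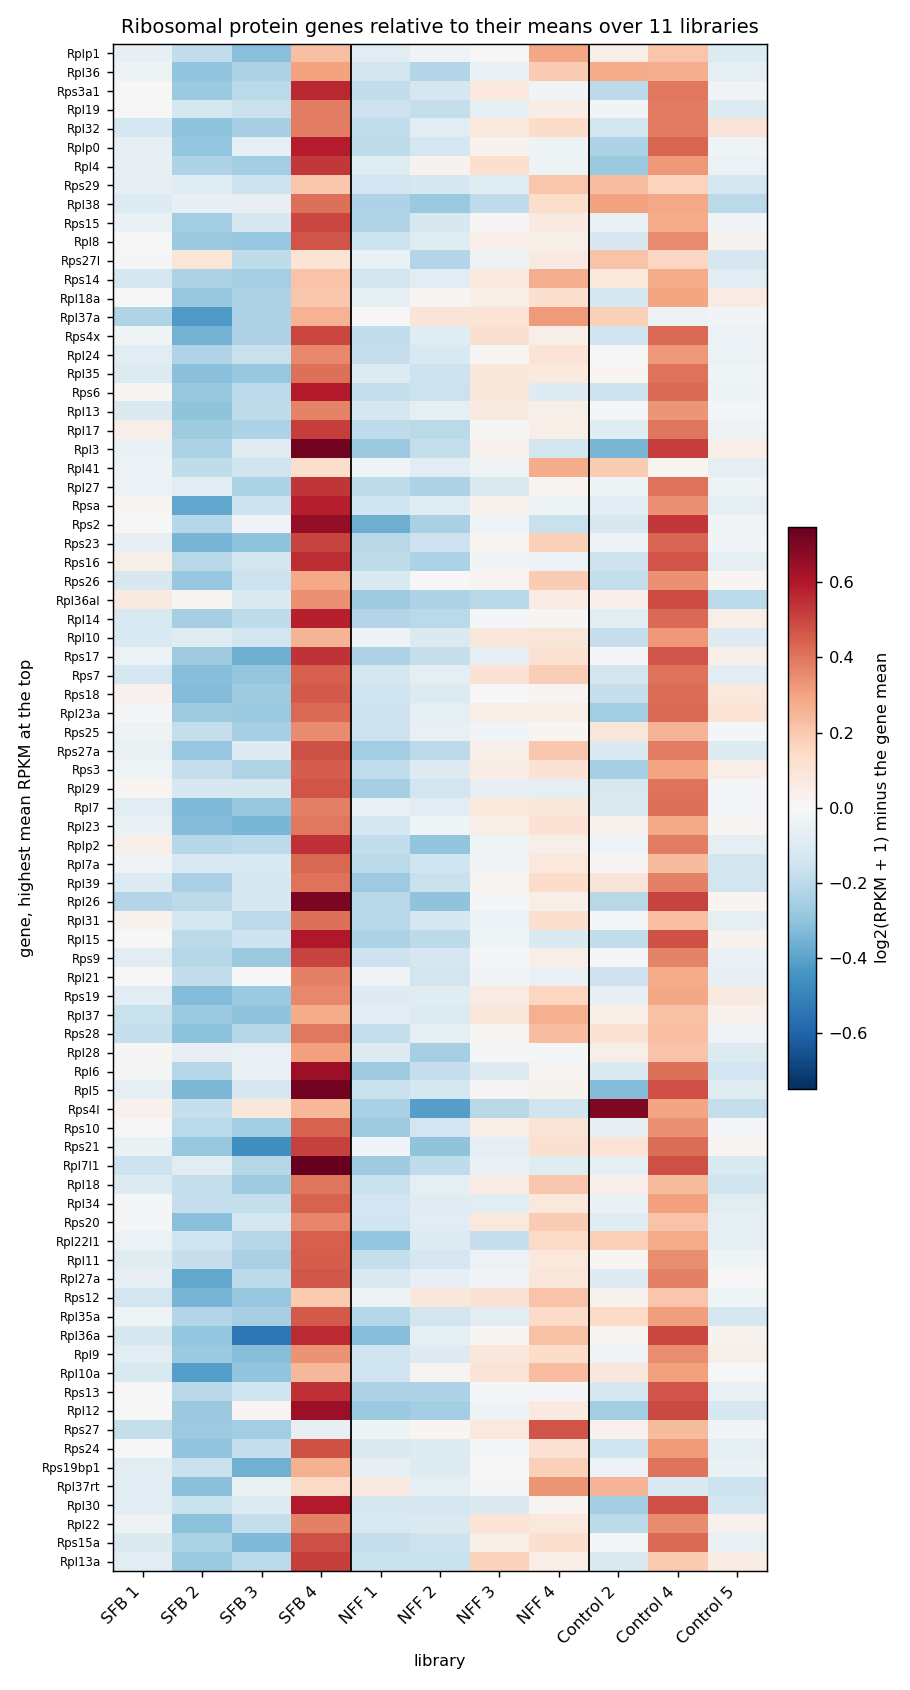
Level of 81 of the 84 ribosomal protein genes in each of the 11 libraries, as log2(RPKM + 1) minus the gene's mean over all libraries (color scale), with genes ordered from the highest mean RPKM at the top and black lines between SFB, NFF and Control. Of all 84 genes, SFB 4 was the highest library for 63 and Control 4 for 12, and Rps27, Rps27l, Rpl41, Rpl37rt and Rps4l depart from the common pattern.

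The 84 genes moved together from library to library, and the libraries that stood out were single libraries of a group, not groups. The ribosomal protein genes made up 1.76, 1.67, 1.63 and 2.69% of the summed RPKM in SFB 1 to 4, 1.61, 1.68, 1.71 and 1.83% in NFF 1 to 4, and 1.54, 2.06 and 1.75% in Control 2, 4 and 5. SFB 4 was the highest of all libraries and Control 4 the second, and the 3 groups overlapped. The mean share was 1.93 ± 0.506% for the 4 SFB libraries, 1.71 ± 0.0914% for the 4 NFF libraries and 1.78 ± 0.260% for the 3 Control libraries (± SD). In bulk samples, fewer cells of a type and less RNA per cell cannot be told apart. The summed level of the large-subunit genes over that of the small-subunit genes was 1.54 to 1.60 in every library, so both subunits moved in the same proportion.

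SFB 4 exceeded every other SFB library in 84 of 84 genes, against 49.0% of all tested genes, and its median difference from the mean of the other SFB libraries was 0.62 on the log2(RPKM + 1) scale. Control 4 exceeded both other Control libraries in 76 of 84 genes, against 43.9% of tested genes, with a median difference of 0.41 from their mean. NFF 4 exceeded the other NFF libraries in 65 of 84 genes, against 34.6%, with a median difference of 0.18 from their mean. The lowest library was SFB 2 for 36 genes, SFB 3 for 21, NFF 1 for 14, NFF 2 for 8 and Control 2 for 5. The mean level of the 33 proliferation genes was also highest in SFB 4 within SFB and in Control 4 within Control, whereas NFF 4 was the lowest NFF library. It was 2.69, 2.26, 2.86 and 4.21 on the log2(RPKM + 1) scale in SFB 1 to 4, 1.61, 1.81, 2.02 and 1.46 in NFF 1 to 4, and 1.66, 3.22 and 2.35 in Control 2, 4 and 5. Their part in the ribosomal protein levels was not tested.

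**Figure D2:**
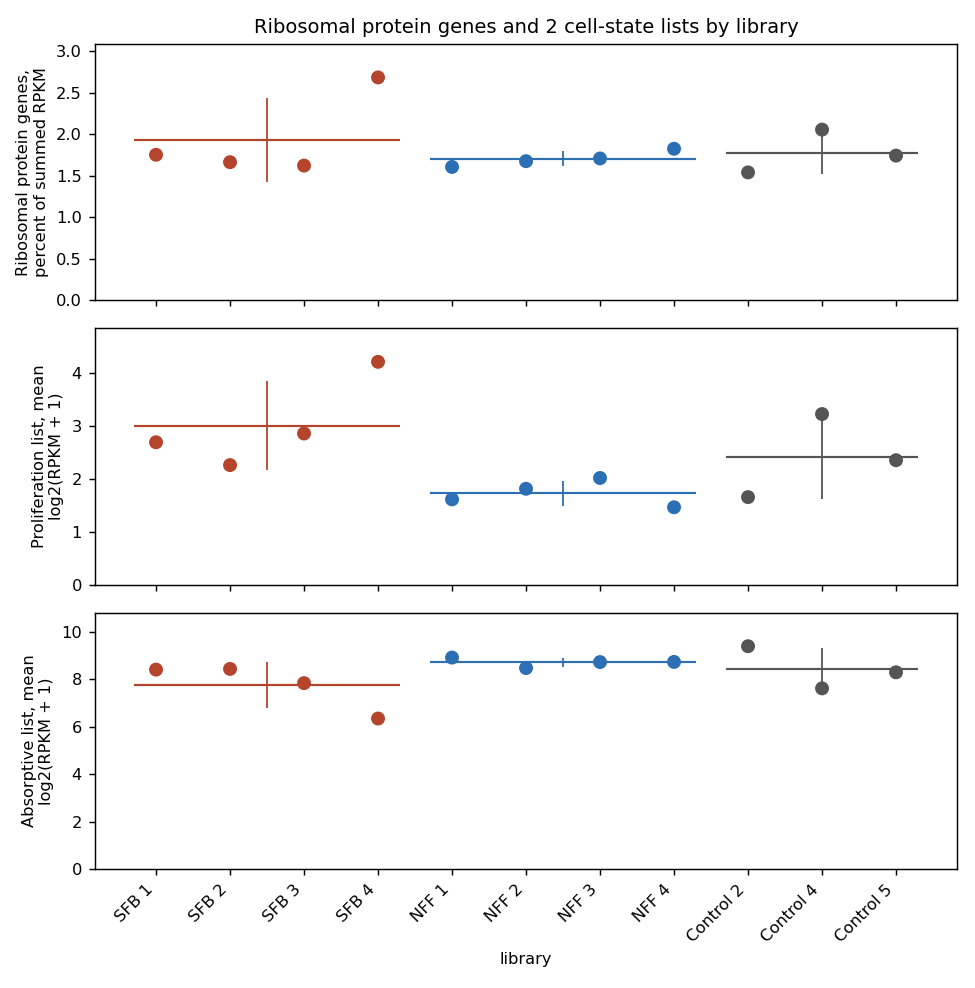
Ribosomal protein genes as percent of summed RPKM (top), mean log2(RPKM + 1) of 33 proliferation genes (middle) and of 10 absorptive enterocyte markers (bottom) in each library, with horizontal lines at group means and vertical lines of 1 SD in SFB, NFF and Control (n = 4, 4 and 3). SFB 4 is highest in the top and middle panels and lowest in the bottom panel.

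Most genes followed the common pattern closely and a few did not. As a description over the 11 libraries, which share their processing and scaling, the level of a gene correlated with the median of the other 83 genes at a median Pearson's r of 0.94, and 59 of 84 genes exceeded 0.9. The least correlated were Rpl37rt, a retrogene copy of Rpl37 (0.28), Rps4l (0.33), Rps27l (0.47), Rps27 (0.48) and Rpl41, the smallest ribosomal protein (0.51). Within groups, the SD of log2(RPKM + 1) was smallest for Rps27l (0.14), Rpl28, Rpl41, Rps27 and Rps29, and among the largest for Rpl5 (0.36), Rpl3, Rpl36a and Rpl26, around a median of 0.25. Rpl3 had 56.1, 49.1, 54.5 and 96.4 RPKM in SFB 1 to 4, 47.7, 51.3, 59.4 and 52.7 in NFF 1 to 4, and 45.6, 83.7 and 60.0 in Control 2, 4 and 5. SFB 4 and Control 4 were the high libraries, and the groups overlapped. Rps27l had 103, 110, 90.5 and 111 RPKM in SFB 1 to 4, 99.9, 88.9, 101 and 109 in NFF 1 to 4, and 120, 115 and 94.6 in Control 2, 4 and 5, with no library far from the rest.

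The size of the step in SFB 4 and Control 4 differed with the length of the coding sequence, which was taken from the GENCODE M21 transcript of each gene for 82 of the 84 genes. In the 21 shortest genes, up to 369 coding bases, SFB 4 exceeded the mean of the other SFB libraries by a median of 0.52, and Control 4 exceeded the mean of the other Control libraries by 0.24. In the 22 longest, from 615 coding bases, these differences were 0.72 and 0.50. Rpl5 stood 0.90 above in SFB 4 and 0.69 above in Control 4, and Rpl3 0.85 and 0.67 above. Rpl41, with 78 coding bases, stood 0.26 above in SFB 4 and at -0.05 in Control 4, Rps27 0.17 and 0.23 above, and Rpl37a 0.56 above in SFB 4 and at -0.12 in Control 4. Across the 82 genes, which are not independent replicates, Spearman's rho between coding length and the difference was 0.46 for SFB 4 and 0.52 for Control 4. Over all tested genes it was -0.08 and -0.19. The part of library preparation or RNA quality in this pattern was not tested.

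**Figure D3:**
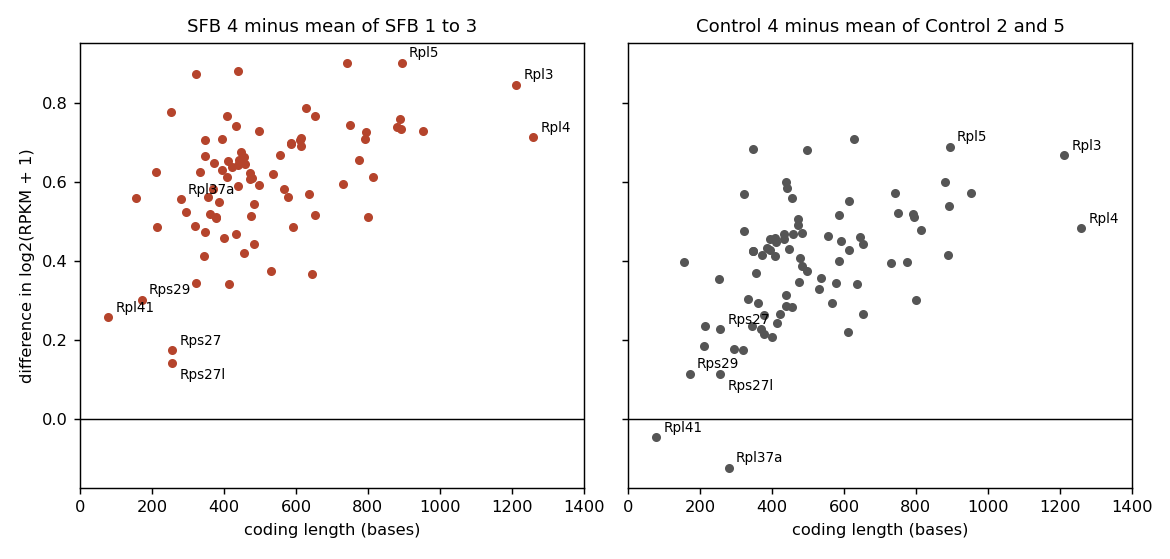
Difference in log2(RPKM + 1) of SFB 4 from the mean of SFB 1 to 3 (left) and of Control 4 from the mean of Control 2 and 5 (right), against the coding length in bases, for 82 ribosomal protein genes (points). Long genes such as Rpl3 and Rpl5 lie high in both panels and the short Rpl41, Rps27 and Rps27l lie low. The order is not strict. The short Rpl36a (321 coding bases) lies at 0.87 and 0.48, and the long Rpl7a (801) at 0.51 and 0.30.

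Colonization with SFB was compared with Control on the same chow. No ribosomal protein gene passed limma's test with Benjamini-Hochberg adjustment over 10482 genes (0 of 84, against 0.2% of all tested genes), and the smallest adjusted p was 0.454, for Rps27. None had an unadjusted p under 0.05, against 12.1% of all tested genes. The median log2 fold change was -0.10, beside 0.01 over all tested genes, with 77 genes below 0 and 7 above as scaled by the authors, against 47.5% of tested genes below 0, but with 72 above 0 when libraries were scaled to an equal sum of RPKM. That scaling moved the median of all genes to 0.18 and put the median of the ribosomal protein genes at -0.09 relative to it, against -0.12 with the authors' scaling. The 95% interval of a gene reached 0.40 to either side of its fold change in the median, and the outermost limits over the 84 genes were -0.79 and 0.56. Without SFB 4 the median was -0.24, all 84 genes were below 0 (56% of tested genes) and 21 had an unadjusted p under 0.05 (9.61% of tested genes were lower at that p), but 0 passed the adjusted threshold, the smallest adjusted p being 0.171. Without Control 4 the median was 0.02 and 50 of 84 genes were above 0, against 56.5% of tested genes. The sign of the median thus depended on Control 4 and on the scaling, and it stayed negative when any other single library was left out.

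The genes with the lowest p-values in SFB against Control were as follows. Rps27, a zinc finger protein of the small subunit, had 8.34, 7.73, 7.82 and 9.11 RPKM in SFB 1 to 4, against 9.82, 11.4 and 9.42 in Control 2, 4 and 5. All SFB libraries were below all Control libraries for Rps27 and for no other of the 84 genes (6.05% of tested genes were lower without overlap), and 0 genes were higher without overlap (3.66% of tested genes). Its log2 fold change of -0.28 ± 0.14 (SE) did not pass the test. Rpl10a averaged 12.8 ± 2.88 RPKM in SFB and 15.5 ± 1.87 in Control (log2 fold change -0.27), and Rps12 averaged 15.4 ± 2.94 and 17.9 ± 1.65 (-0.22), with overlapping groups in both. On the higher side, none of which passed, Rpl12 had a log2 fold change of 0.06, Rpl6 of 0.04 and Rpl21 of 0.02, and each turned negative without SFB 4.

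The low-fiber diet was compared with Control to ask how dietary fiber relates to epithelial expression. Again 0 of 84 genes passed limma's test with Benjamini-Hochberg adjustment, where 0% of all tested genes passed, with a smallest adjusted p of 0.820. The only gene with an unadjusted p under 0.05 was Rps4l, against 4.82% of all tested genes. The median log2 fold change was -0.13, beside -0.01 over all tested genes, with 79 genes below 0 and 5 above, against 51.7% of tested genes below 0, and it was also negative under each of the 4 other scalings of libraries tried, but 0.08, with 69 genes above 0, with the proliferation covariate described below, where the median of all tested genes was 0.05 and 61.4% of them were above 0. Without Control 4 the median was -0.01 and 46 genes were below 0, against 46.3% of tested genes. No gene had NFF libraries all above (5.35% of tested genes) or all below (4.42%) the Control libraries.

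Rps4l had 22.4, 19.9, 23.1 and 24.0 RPKM in NFF 1 to 4, against 44.1, 33.0 and 23.5 in Control 2, 4 and 5. NFF 4 exceeded Control 5, so the groups overlapped, and Control 2 was the highest library of the study for this gene. Its log2 fold change was -0.52 ± 0.18 (SE) with adjusted p = 0.820 by limma, and -0.31 without Control 2. The next lowest p-values were those of Rpl36al, at 45.6 ± 4.97 RPKM in NFF and 56.1 ± 14.2 in Control (-0.27), and Rps2, an entry-channel protein of the small subunit, at 45.2 ± 4.53 and 58.0 ± 15.1 (-0.33). In the other direction Rpl37rt, Rpl37a and Rps27 had log2 fold changes of 0.09, 0.09 and 0.05, none past the test.

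SFB and NFF mice differed in both diet and colonization in this comparison. It shares its libraries with the comparisons above. Here 7.34% of all tested genes passed limma's adjusted threshold and 25.7% had an unadjusted p under 0.05, whereas 0 of 84 ribosomal protein genes passed and 1, Rps27, had an unadjusted p under 0.05. The median log2 fold change of the 84 genes was 0.03, beside 0.02 over all tested genes, with 50 above 0 and 34 below, against 52.7% of tested genes above. Without SFB 4 the median was -0.11, with 69 genes below 0, against 52.8% of tested genes. Of the 84 genes, 0 were higher without overlap (10.1% of tested genes) and 1, Rps27, was lower without overlap (9.91%).

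Rps27 had 8.34, 7.73, 7.82 and 9.11 RPKM in SFB 1 to 4, against 9.28, 9.67, 10.1 and 13.6 in NFF 1 to 4. The highest SFB library lay just under the lowest NFF library. The log2 fold change was -0.32 ± 0.13 (SE), with an unadjusted p of 0.0258 and an adjusted p of 0.137 by limma, and it lay between -0.43 and -0.21 under the 27 alternatives, whose adjusted p ran from 0.00865 to 0.318. Rpl37a, a zinc finger protein of the large subunit, averaged 71.4 ± 15.7 RPKM in SFB and 86.0 ± 8.39 in NFF (-0.28), and Rps12 averaged 15.4 ± 2.94 and 18.2 ± 1.37 (-0.24). Higher in SFB, but not past the test, were Rps4l at 27.8 ± 3.45 RPKM in SFB and 22.3 ± 1.79 in NFF (0.30), Rps2 at 57.6 ± 17.1 and 45.2 ± 4.53 (0.31) and Rpl36al at 54.3 ± 7.42 and 45.6 ± 4.97 (0.24).

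Fits that change the weight of libraries or set proliferation apart gave calls in this comparison. With array weights, which give outlying libraries less weight, 6 genes passed limma's adjusted threshold, against 45% of all tested genes. Rpl37a, Rps12, Rps27 and Rpl37 were lower in SFB, and Rps4l and Rpl36al were higher. The estimate of those weights had not converged. With weights estimated gene by gene, an alternative chosen after seeing the data, the lower Rpl37a, Rps12 and Rps27 passed, against 28.8% of all tested genes. With the mean level of the 33 proliferation genes as a covariate, Rpl5, Rpl7 and Rps12 passed as lower in SFB, against 6.56% of all tested genes, and the median of the 84 genes was -0.37, beside -0.10 over all tested genes. That mean level did not overlap between the groups, at 2.26 to 4.21 in SFB and 1.46 to 2.02 in NFF. The adjusted difference thus refers to a level of proliferation genes that libraries of both groups did not share. In the same fit 42 of the 84 genes were lower in SFB than in Control at an unadjusted p under 0.05, against 11.9% of all tested genes, and 0 passed the adjusted threshold. Of the 33 proliferation genes themselves, 4 were called in SFB against NFF and 0 in SFB against Control. In SFB against NFF, 31 of them were higher at an unadjusted p under 0.05 by limma, against 12.5% of all tested genes.

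**Figure D4:**
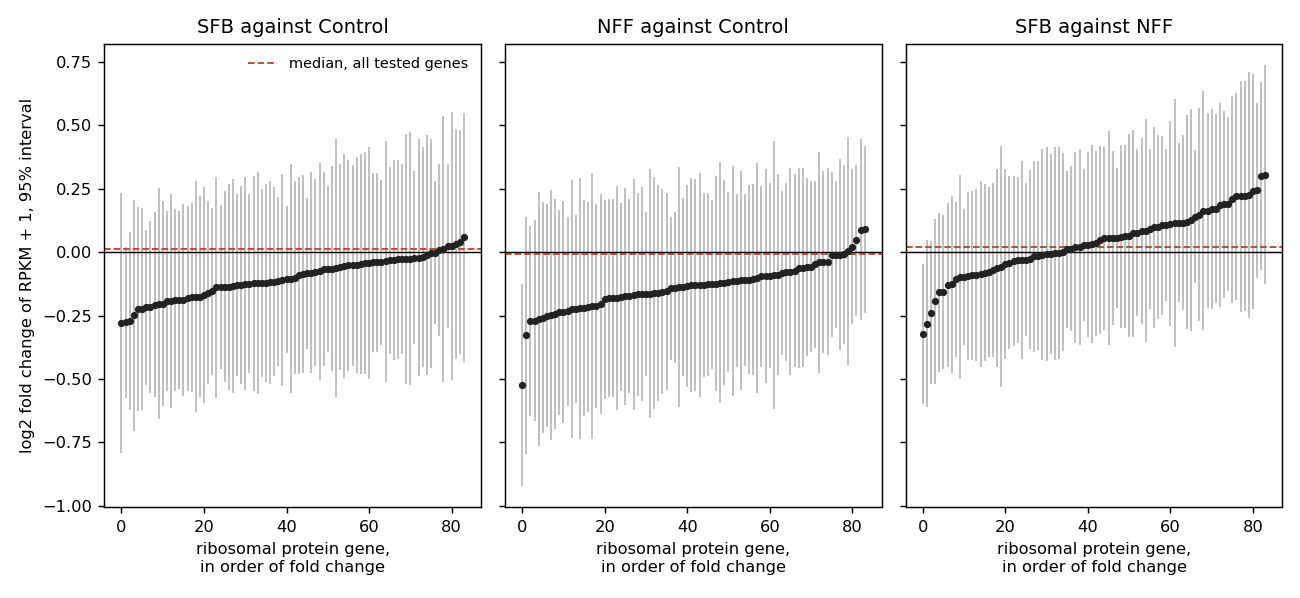
Log2 fold change of RPKM + 1 (points) with its 95% interval (gray lines) for each of the 84 ribosomal protein genes, in order of fold change, in SFB against Control, NFF against Control and SFB against NFF, with a dashed line at the median of all tested genes. The medians are -0.10, -0.13 and 0.03 with the authors' scaling, that of SFB against Control being 0.09 when libraries are scaled to an equal sum of RPKM, and 0 genes pass the adjusted threshold in any panel.

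Rps27 (Entrez 57294, chromosome 3) and Rps27l (Entrez 67941, chromosome 9) encode closely related forms of the same small-subunit protein. Rps27l had the higher RPKM in every library, but the level of Rps27 in particular is uncertain, since 59.5% of its 50-base windows, against 22.4% for Rps27l, also occur in pseudogenes. The ratio of Rps27l to Rps27 was 12.3, 14.3, 11.6 and 12.2 in SFB 1 to 4, 10.8, 9.20, 9.97 and 7.97 in NFF 1 to 4, and 12.2, 10.1 and 10.04 in Control 2, 4 and 5. Every SFB library exceeded every NFF library. The mean log2 ratio was 0.41 higher in SFB than in NFF, with a two-sided exact permutation p = 0.0286, the smallest p that this design allows, and an adjusted p of 0.114 over 12 such tests. The difference of SFB from Control was 0.22 (exact permutation p = 0.171) and that of NFF from Control was -0.19 (p = 0.229, exact permutation), both with overlapping groups. The coding sequences of the pair (GENCODE M21, GRCm38) have 255 bases each, agree at 76.1% of positions and share no run of identical bases longer than 11, so a read of usual length from the coding part of one does not match the other exactly. They are shown with the 61 differing bases in capitals.
Rps27: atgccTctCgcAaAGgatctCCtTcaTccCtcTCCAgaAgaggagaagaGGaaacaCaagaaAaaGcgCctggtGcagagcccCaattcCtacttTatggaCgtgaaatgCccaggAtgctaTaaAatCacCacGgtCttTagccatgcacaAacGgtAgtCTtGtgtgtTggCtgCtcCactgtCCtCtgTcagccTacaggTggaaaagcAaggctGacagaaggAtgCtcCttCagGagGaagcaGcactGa
Rps27l: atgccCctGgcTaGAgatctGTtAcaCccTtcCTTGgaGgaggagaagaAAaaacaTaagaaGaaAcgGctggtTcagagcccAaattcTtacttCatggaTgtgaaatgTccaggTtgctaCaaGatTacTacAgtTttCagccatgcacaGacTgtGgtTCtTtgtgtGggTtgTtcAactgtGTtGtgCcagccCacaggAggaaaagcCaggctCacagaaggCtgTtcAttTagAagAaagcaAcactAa

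The other paralog pairs were compared in the same way. Rpl7l1, a nucleolar relative of Rpl7 that acts in ribosome assembly, stood to Rpl7 at a ratio of 0.547, 0.684, 0.603 and 0.753 in SFB 1 to 4, 0.494, 0.531, 0.528 and 0.509 in NFF 1 to 4, and 0.593, 0.607 and 0.537 in Control 2, 4 and 5. NFF libraries were below all others. The mean log2 ratio was 0.32 higher in SFB than in NFF (exact permutation p = 0.0286, adjusted p = 0.114 over 12 tests) and the difference of NFF from Control was -0.17 (exact permutation p = 0.0286, adjusted p = 0.114). Rpl7l1 itself had 41.1 RPKM in SFB 4 against 20.6 to 22.6 in the other SFB libraries. The ratio of Rpl22l1 to Rpl22, 2 RNA-binding paralogs of which Rpl22 represses the other in mouse cells, ranged from 2.69 to 3.12 in SFB, from 2.21 to 2.84 in NFF and from 2.52 to 3.61 in Control. That of Rpl36al to Rpl36a ranged from 2.82 to 4.63 in SFB, from 2.86 to 3.501 in NFF and from 2.83 to 3.37 in Control. Groups overlapped in all comparisons of these 2 pairs, and the exact permutation p-values lay between 0.143 and 0.971.

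The machinery around the ribosome was described from lists of genes. None of the genes of ribosome biogenesis (62 tested), RNA polymerase I (15), tRNA synthetases (22), elongation (10) and ribosome-associated factors (9), nor Fau and Rack1, passed limma's adjusted threshold in any comparison, and the same held for initiation factors and mitochondrial ribosomal proteins against Control. In SFB against NFF the ribosome biogenesis genes had a median log2 fold change of 0.41 with 60 of 62 above 0 and 21 higher at an unadjusted p under 0.05, against 52.7% and 12.5% of all tested genes, the smallest adjusted p being 0.0586 by limma for Wdr12, a large-subunit assembly factor at 1.69 ± 0.472 RPKM in SFB and 0.884 ± 0.125 in NFF. Over the 63 measured biogenesis genes, the mean log2(RPKM + 1) was 2.64, 2.47, 2.84 and 3.47 in SFB 1 to 4. In NFF it ranged from 2.37 to 2.53, so SFB 4 was the highest library and SFB 2 lay within the NFF range. The tRNA synthetases had a median log2 fold change of 0.36 in SFB against NFF, with 20 of 22 above 0. Of 39 initiation factors 1 passed, a smaller share than the 7.34% of all tested genes. It was Eif1a, which helps the small subunit scan for the start codon, at 15.7 ± 2.72 RPKM in SFB and 8.30 ± 0.540 in NFF (log2 fold change 0.83, limma adjusted p = 0.0052). In the same comparison 4 of 33 proliferation genes were called higher in SFB, against 329 of 10482 tested genes, and the median of the list was 1.29. All 8 measured tuft cell markers were called lower, summing to 11.03 to 64.2 RPKM in SFB and 139 to 266 in NFF. Among other marker lists, the crypt genes Olfm4 (log2 fold change 3.00) and Cd44 (0.80), whose product was selected against in the sort, and the myeloid gene Itgam (1.41) were called higher. The other 2 tested leukocyte markers, Ptprc and Lyz2, went the other way. Both were lower in SFB without overlap (9.91% of all tested genes) but were not called. Called lower were the crypt gene Sox9 (-0.74), the absorptive marker Sis (-1.27), the regional markers Cubn (-1.93), Guca2a (-1.20) and Adh1 (-2.56), and the enteroendocrine genes Chga (-1.87) and Chgb (-2.09). The part of these cell types in the values of the translation genes was not tested.

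Mitochondrial ribosomal protein genes build the separate ribosome of the mitochondrion. Their 77 tested genes had a median log2 fold change of 0.19 in SFB against NFF, with 64 above 0, against 52.7% of all tested genes, and 1 called, a smaller share than the 7.34% of all tested genes. That gene was Mrpl16, at 9.10 ± 1.64 RPKM in SFB and 6.15 ± 0.578 in NFF (0.49, limma adjusted p = 0.039). On the log2(RPKM + 1) scale the mean of the mitochondrial list was 3.88, 3.82, 3.70 and 4.34 in SFB 1 to 4. In NFF it ranged from 3.67 to 3.82, and only SFB 1 and SFB 4 lay above that range. SFB 4 was thus the high library here too. The cytosolic genes had a median log2 fold change of 0.03 in SFB against NFF, and the difference between the lists was not tested. Against Control the mitochondrial genes had a median of -0.02 in SFB and -0.21 in NFF, beside -0.10 and -0.13 for the cytosolic genes, with 0 called. Among 34 genes of mTOR and Myc control 3 passed in SFB against NFF, a share near the 7.34% of all tested genes. Mxi1, a Myc antagonist, was higher in SFB (11.8 ± 2.71 RPKM in SFB and 6.75 ± 0.897 in NFF, log2 fold change 0.70). Mxd4, of the same family (4.58 ± 0.684 and 7.09 ± 1.27, -0.53), and Lamtor4, part of the complex that anchors mTORC1 to lysosomes (15.2 ± 1.02 and 20.5 ± 1.66, -0.41), were lower.

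Ribosomal protein genes have many processed pseudogenes, copies of their messenger RNAs in the genome, and reads from the gene can match these equally well. Among 82 genes with a transcript, a median of 51.3% of all 50-base windows were also found in at least 1 of 13510 pseudogene transcripts of GENCODE M21, and 42 genes exceeded 50%. Of 10244 tested genes with a transcript, 1.17% exceeded 50%, and the median was 0%. Rpl3 (85.6%), Rps6 (84.6%) and Rps13 (83.0%) shared the most, whereas Rps19bp1 shared none. The level of a gene was not ordered by this share: the 14 genes under 25% had a median of 37.5 RPKM and the 15 genes at 75% or more had 48.0, and Spearman's rho across genes was 0.02. The share also depends on the transcript taken for a gene. Those of Rps15a (5.71%) and Rps20 (7.22%), both among the genes under 25%, had 5130 and 3706 bases. Only 393 and 360 of these were coding. No source used here says how reads that match more than 1 place were counted, so levels of the genes with a high share are uncertain.

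**Figure D5:**
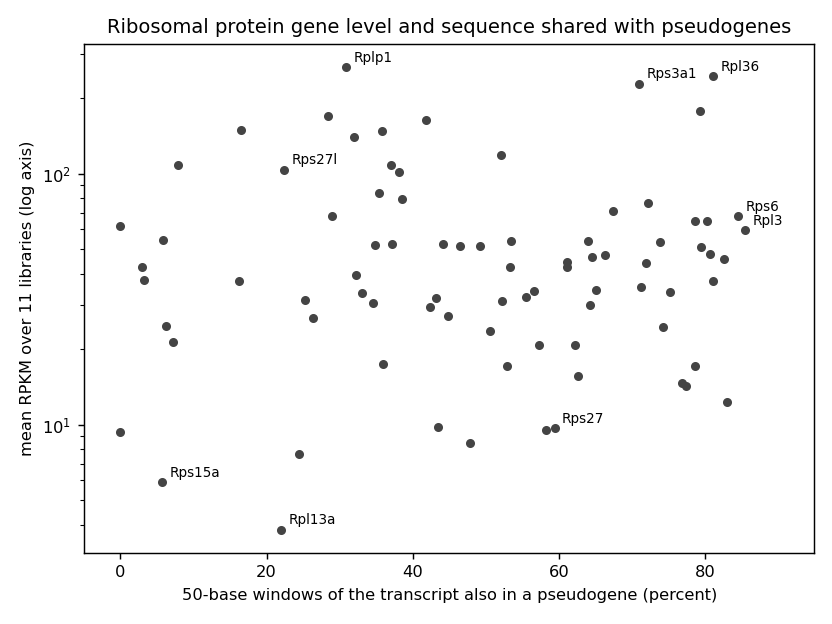
Mean RPKM over the 11 libraries (log axis) against the percent of 50-base windows of the transcript that also occur in an annotated pseudogene, for 82 ribosomal protein genes (points). The abundant Rplp1 and Rpl36 lie at 30.9% and 81.1%, and the low Rps15a and Rps27 at 5.71% and 59.5%. The share depends on the transcript taken, which for Rps15a had 5130 bases with 393 coding.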

How the data were processed

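The authors deposited 1 table of RPKM values for 11366 genes in 11 libraries, per the file headers, and reads were aligned with STAR to mm10, per the submitters' processing notes. Per the labels' protocols, cDNA was made with SMART-seq v4 and libraries with NexteraXT, kits that mark neither molecules nor strand, so overlapping genes may share reads. No source used here gives the counting tool, the gene lengths or the rule for detection, and read depth is unknown. The 15 symbols turned into dates by a spreadsheet were restored from Entrez identifiers, of which 11360 matched RefSeq.

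Values were analysed as log2(RPKM + 1), which understates changes of low genes. Genes with at least 1 RPKM in at least 3 libraries (10482, with 884 left out) were fitted in limma 3.58.1 (R 4.3.3) with 1 mean per group over all libraries and eBayes with a trend, and p-values were Benjamini-Hochberg adjusted over all tested genes with a threshold of 0.05. Paralog ratios were compared by two-sided exact permutation tests. Alternatives changed the pseudocount, filter, scaling, variance model, libraries used, replicate block and a proliferation covariate. Named genes were those of lowest p-value in each direction and comparison, the extremes of level, spread and correlation, and a list of well-known genes. Results of some single genes are not reported here, though counts include them. The genes, lists and rules were chosen with earlier results of these data known.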

Additional observations from a re-analysis of the deposited data

Results flagged for a closer look

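Values in this part are the gap from the highest library of a group to the next one, as a fraction of the group's whole range. A group of 4 was taken up when this fraction exceeded Dixon's 95% critical value of 0.829, which chance alone exceeds in about 1 in 20 groups. For the share of summed RPKM, SFB 4 stood apart at 0.877. Among the 84 ribosomal protein genes, 10 stood apart in SFB and 4 in NFF, each with a high library and 0 with a low one. Of all tested genes, 8.08% in SFB and 3.61% in NFF had such a high library. Low libraries were also rare among all tested genes, at 1.77% in SFB and 2.58% in NFF. SFB 4 stood apart for Rpl38 (0.927), Rpl26 (0.918), Rpl30 (0.915), Rpl7l1 (0.902), Rpl10 (0.899), Rpl14 (0.873), Rpl7a (0.857), Rpl3 (0.853) and Rps28 (0.844), among others. NFF 4 stood apart for Rpl41 (0.875), Rpl30 (0.866), Rps29 (0.865) and Rpl36al (0.841). SFB 4 was also the library highest in proliferation genes, with a mean of 4.21 on the log2(RPKM + 1) scale against 2.26 to 2.86 in the other SFB libraries, and the part of this in its ribosomal protein levels was not tested.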

How the results depend on the processing

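With 2 other pseudocounts, 2 other filters, 4 other scalings, no variance trend, robust eBayes or only the 2 groups compared, 0 of the 84 genes (83 tested under the stricter filter) passed the adjusted threshold in any comparison. In SFB against NFF, 6 passed with array weights, 3 with gene-by-gene weights and 3 with the proliferation covariate, under which the median was -0.37, Rps2 was at -0.25 and Rpl36al at -0.0095; the cause was not tested. Fits that left out 1 library gave a median of -0.20 to -0.01 in NFF against Control, -0.24 to 0.02 in SFB against Control and -0.11 to 0.11 in SFB against NFF. Without Control 2, SFB 2 and SFB 4, the summed share in SFB minus Control was -0.21 percentage points, against 0.15 with all libraries.

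Genes with small differences changed sign. In SFB against Control, Rpl12, Rpl6 and Rpl21 were at -0.021, -0.0070 and -0.022 with gene-by-gene weights, at -0.17, -0.17 and -0.11 without the 3 libraries, and at -0.20, -0.19 and -0.13 with the covariate. Leaving out 1 library gave -0.12 to 0.29 for Rpl12, -0.14 to 0.22 for Rpl6 and -0.086 to 0.15 for Rpl21, and -0.066 to 0.12 for Rps27 in NFF against Control. The log2 ratio of Rpl22l1 to Rpl22 ranged from -0.096 to 0.16 in SFB against Control and from -0.25 to 0.0076 in NFF against Control, and was 0.098 and 0.0076 without the 3 libraries. That of Rpl36al to Rpl36a in NFF against Control ranged from -0.12 to 0.0097, and was 0.0097 without the 3 libraries.

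The labels give no meaning to the replicate numbers. Deviations of same-numbered libraries correlated at between -0.30 and 0.67, too unevenly to treat them as pairs. However, the 0.67 between SFB 4 and Control 4 was the highest of all pairs of libraries from different groups. NFF 4 correlated at -0.27 with SFB 4 and at -0.28 with Control 4. In each group number 4 was the library with the highest ribosomal protein share of summed RPKM. With a replicate block, 0 of the 84 genes passed in any comparison, the medians were -0.12 in NFF against Control, -0.09 in SFB against Control and 0.03 in SFB against NFF, and Rpl21 in SFB against Control was at -0.0089. Number 5 occurs only in Control, so Control 5 adds nothing to this fit, in which Control rests on Control 2 and Control 4. Read depth is unknown, so no counting interval could be given.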
